A study of Mus musculus with 23 samples.

Results

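Hippocampal gene expression was compared between all alcohol-fed mice, taken as one side, and control mice. The alcohol-fed side held 14 mice, of which 7 received an ethanol liquid diet with vehicle (EtOH) and 7 received the ethanol liquid diet with urolithin A, a gut microbial metabolite of ellagitannins, at 200 mg/kg/day by gavage (EtOH-UA). The other side held 9 mice on a control liquid diet with vehicle (Ctrl). These 23 mice are the whole series, and the side of each mouse was taken from the name of its column in the deposited table. All were wild-type male C57BL/6J mice, 6 weeks old on acquisition, kept on the diets for 16 weeks with 1 further week of behavioral tests. The EtOH and Ctrl mice were pair-fed. The shared feature of the alcohol-fed side is therefore the ethanol diet, and 7 of its 14 mice also carry the UA treatment, so the difference from Ctrl averages over ethanol with and without UA. Expression was tested for the 12904 of 19733 genes that had a mean of at least 1 FPKM (fragments mapped to a gene, scaled to the length of its transcript and to the library) over the 23 mice. Values were compared as log2(FPKM + 0.1), so that a log2 fold change is on that scale and understates the change of genes near 1 FPKM.

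The hippocampus holds the granule cells of the dentate gyrus and the pyramidal cells of the CA fields, with interneurons, glia and vessels, and it serves memory. Ethanol acts on GABA-A and NMDA receptors and on potassium channels, and chronic exposure in rodents is known to affect hippocampal neurogenesis, glia and daily rhythms. The hippocampus borders the lateral ventricle, which is lined by ependymal cells with motile cilia and holds the choroid plexus, the epithelium that secretes cerebrospinal fluid. A dissected hippocampus can carry a varying amount of either tissue.

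Every marker of neurons, subfields, glia and vessels that was examined was above 0 in all 23 mice, and the dissected tissue carried the defining genes of its label, among them Prox1 of granule cells (5.66 to 23.2 FPKM) and Wfs1 of CA1 (19.0 to 38.6 FPKM). Summed FPKM ranged from 330456 to 361354 in Ctrl and from 327896 to 404609 in alcohol-fed mice, and between 16996 and 17413 genes were above 0. The table gives no read counts. Of 576 genes with 1 annotated transcript that were examined, 13 had low values in whole steps. The steps of these 13 genes put 1 FPKM at 16.4 fragments for each kilobase of a transcript (median). Genes close to 1 FPKM thus rest on few fragments. The choroid plexus marker Ttr ranged from 3.88 to 2914 FPKM in Ctrl mice (median 56.1) and from 11.3 to 7705 FPKM in alcohol-fed mice (median 1530). It was at least 100 FPKM in 4 of 9 Ctrl and 10 of 14 alcohol-fed mice. Markers of the choroid plexus, and of the ependyma, were thus higher on average in alcohol-fed mice, and leading genes are also given below with these markers taken into account.

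No gene differed between alcohol-fed and Ctrl mice at an adjusted p under 0.05 (limma, Benjamini-Hochberg adjustment), and percent called was 0. The smallest adjusted p was 0.9998. By the exact permutation test over all 817190 assignments of mice to the 2 sides, 0 genes (0%) passed after adjustment and 281 (2.18%) were under an unadjusted p of 0.05. By limma, 254 genes (1.97% of those tested) were under an unadjusted p of 0.05, of which 156 (1.21%) were higher and 98 (0.759%) lower in alcohol-fed mice. In 0 genes (0%) were the 14 alcohol-fed values and the 9 Ctrl values separated without overlap. The differences were small: 96.7% of the genes had an absolute log2 fold change under 0.2, and the 95% interval extended a median of 0.143 to either side of the estimate. In 27 genes (0.209%) the mean differed by 1 or more on the log2 scale, all higher in alcohol-fed mice, and 15 of these belong to the lists of choroid plexus or ependymal genes described below. The genes named next had the 10 smallest unadjusted p-values in each direction, and none of them passed the adjustment.

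**Figure D1:**
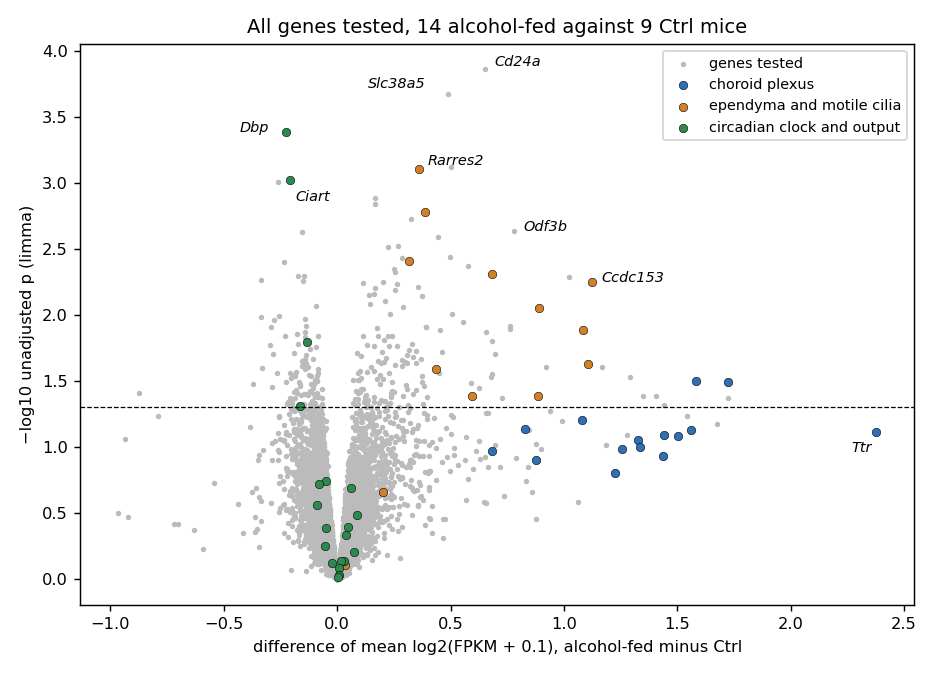
Each point is 1 of the 12904 genes tested, with the difference of mean log2(FPKM + 0.1) between 14 alcohol-fed and 9 Ctrl mice on the x axis and −log10 of the unadjusted limma p on the y axis. The dashed line marks an unadjusted p of 0.05, which limma gave. Choroid plexus genes lie far to the right with p-values near the line, ependymal genes lie to the right and higher up, and Dbp and Ciart lie at the upper left.

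The genes with the smallest p-values among those higher in alcohol-fed mice include a surface glycoprotein of immature neurons and ependymal cells, an amino acid transporter, a secreted chemoattractant and several genes of motile cilia. Cd24a, the surface glycoprotein, lies on chromosome 10 (GRCm38, chr10:43579169-43584265). It was between 2.02 and 4.16 FPKM in Ctrl mice (median 2.81) and between 2.80 and 6.52 FPKM in alcohol-fed mice (median 4.35). In 9 of the 14 alcohol-fed mice it was above every Ctrl mouse, and the sides overlapped in the others. The log2 fold change was 0.65 (SE 0.145), with an unadjusted p of 0.000138 in limma and of 0.000538 in the exact permutation test. Over the alternative settings its adjusted p was between 0.0523 and 1.0.

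Slc38a5, a transporter of glutamine and other neutral amino acids, was between 0.73 and 1.69 FPKM in Ctrl mice (median 0.98) and between 1.09 and 1.97 FPKM in alcohol-fed mice (median 1.46). All 14 alcohol-fed mice were above the Ctrl median, but 2 Ctrl mice (1.17 and 1.69 FPKM) lay within their range, 1 more was at its lowest value, and only 2 alcohol-fed mice were above all Ctrl mice. Its log2 fold change was 0.49 (SE 0.113, unadjusted p = 0.000211, exact permutation p = 0.000377). Rarres2, which encodes the chemoattractant chemerin, had a median of 5.23 FPKM in Ctrl (4.36 to 6.98) and of 6.85 FPKM in alcohol-fed mice (5.40 to 10). Here 7 of 14 alcohol-fed mice exceeded all Ctrl mice, and the log2 fold change was 0.36 (SE 0.094, unadjusted p = 0.00078, exact permutation p = 0.00161).

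Cln3 and Bphl had smaller differences with little spread. Cln3, a lysosomal membrane protein whose loss causes juvenile Batten disease, was between 4.56 and 5.44 FPKM in Ctrl (median 5.0) and between 5.05 and 6.28 FPKM in alcohol-fed mice (median 5.63). It was above all Ctrl mice in 10 of 14 alcohol-fed mice, with a log2 fold change of 0.17 (SE 0.047, unadjusted p = 0.0013, exact permutation p = 0.000873). Bphl, a serine hydrolase, was between 13.3 and 14.8 FPKM in Ctrl (median 13.97) and between 13.99 and 18.4 FPKM in alcohol-fed mice (median 15.9), a log2 fold change of 0.17 (SE 0.046, unadjusted p = 0.00143, exact permutation p = 0.0015). The lowest alcohol-fed mouse lay at the Ctrl median, and 9 of 14 were above all Ctrl mice. The remaining genes of this direction were near 1 to 2 FPKM. Rfc4, a subunit of the clamp loader of DNA replication, had a log2 fold change of 0.33 (unadjusted p = 0.00187). The unnamed locus LOC115488002 had one of 0.50 (unadjusted p = 0.00076). The flagellar and ciliary genes Cfap45 (0.39), Odf3b (0.78) and Iqcg (0.45) had unadjusted p-values of 0.00167, 0.00232 and 0.00256.

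**Figure D2:**
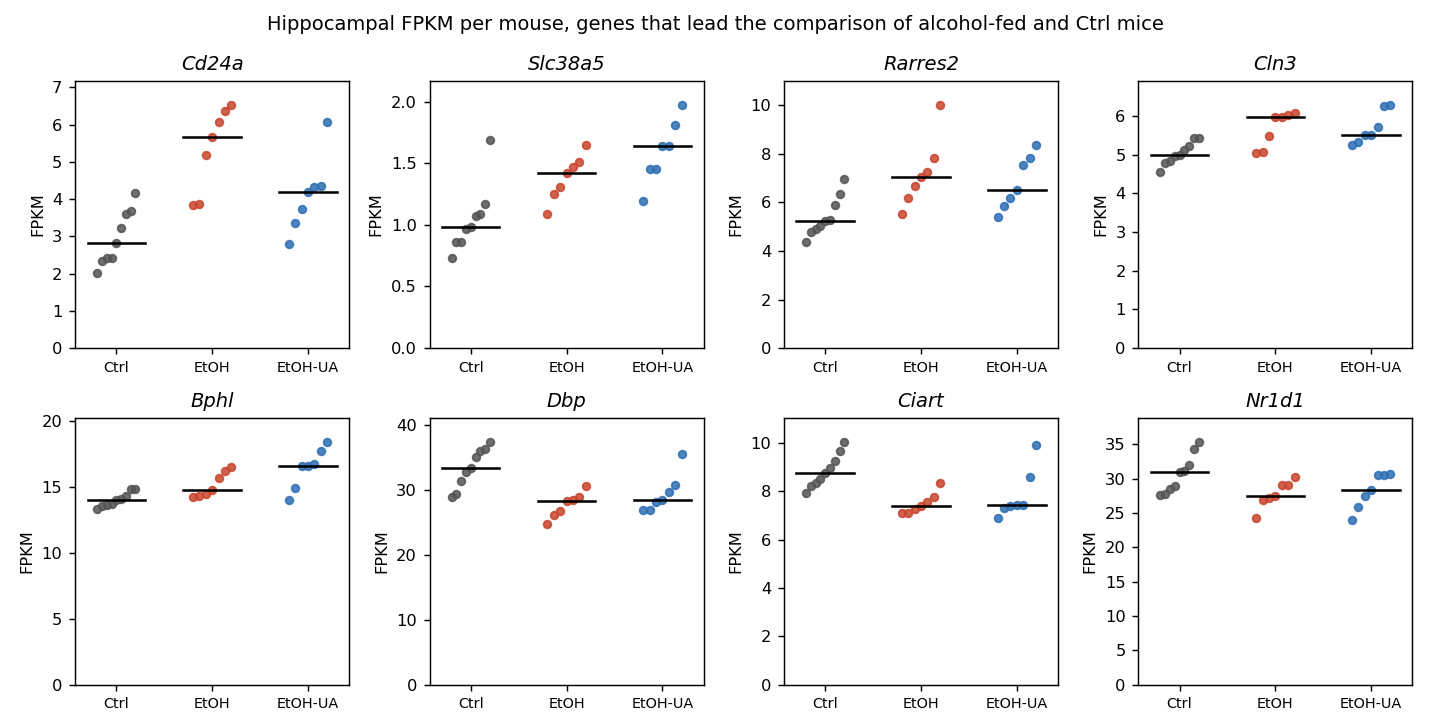
FPKM of 8 genes in each of the 23 mice (points), by group, with the group median as a bar and the y axis from 0. For Cd24a, Slc38a5, Rarres2, Cln3 and Bphl both alcohol-fed groups have medians above the Ctrl median, and for Dbp, Ciart and Nr1d1 both have medians below it, while the points of the groups overlap in all 8 genes.

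Among the genes lower in alcohol-fed mice, the first 2 belong to the output of the circadian clock, in which CLOCK and ARNTL drive E-box genes such as Per, Cry, Nr1d1, Dbp and Ciart that feed back on them. Dbp, a transcription factor of the PAR bZIP family, was between 28.8 and 37.4 FPKM in Ctrl (median 33.4) and between 24.7 and 35.6 FPKM in alcohol-fed mice (median 28.4). In 9 of 14 alcohol-fed mice it was below every Ctrl mouse, and 1 was above the Ctrl median. The log2 fold change was −0.22 (SE 0.055, unadjusted p = 0.000408, exact permutation p = 0.000835). Ciart, a repressor of CLOCK-ARNTL activity, was between 7.93 and 10.03 FPKM in Ctrl (median 8.76) and between 6.90 and 9.91 FPKM in alcohol-fed mice (median 7.40). It was below every Ctrl mouse in 11 of 14 alcohol-fed mice, more than for any other gene named here, with a log2 fold change of −0.21 (SE 0.055, unadjusted p = 0.000944, exact permutation p = 0.00136). Nr1d1, the nuclear receptor that represses Arntl, was between 27.7 and 35.4 FPKM in Ctrl (median 31.0) and between 24.1 and 30.7 FPKM in alcohol-fed mice (median 27.9). All 14 alcohol-fed mice were below the Ctrl median, and the log2 fold change was −0.13 (unadjusted p = 0.0159).

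The rest of the clock list went both ways. Of the 20 clock and output genes tested, 10 had higher and 10 lower means in alcohol-fed mice, and the list's median log2 fold change was −0.009, beside −0.002 over all genes tested. Unadjusted p-values under 0.05 were found for 4 of the 20, all lower: Dbp, Ciart, Nr1d1 and Rorb (−0.17, unadjusted p = 0.0486), a nuclear receptor also used as a marker of neocortex. Over all genes tested, 0.759% were lower at that threshold. In the smaller set of mice with Ttr below 100 FPKM, 0 of the 20 were under 0.05, and in the mice at or above it 3 were, all lower. The core activators Clock (0.031) and Arntl (0.017), the repressors Per1 (−0.049), Per2 (0.048), Cry1 (0.063) and Cry2 (0.009), and the PAR bZIP factors Tef (−0.051) and Hlf (−0.052) had log2 fold changes near 0, with unadjusted p-values from 0.181 to 0.820.

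Upstream sequences were read for the clock list because Dbp and Ciart, the first 2 genes among those lower, belong to it, and for the ependymal list because nearly all its genes stood higher together. They come from RefSeq (GRCm38.p6), 250 bases before each start, and 10318 of the genes tested had one. The E-box CACGTG, which is its own reverse complement, was in the window of 5 of the 18 clock genes found (27.8%), and of 9.91% of all genes tested with a window. Ciart held 3 E-boxes, Tef held 2, and Per1, Cry1 and Bhlhe41 held 1 each, whereas the windows of Dbp and Nr1d1 held none. The D-box letters TTATGTAA or TTACGTAA, on either strand, were in 1 of the 18 windows (Per3), and in 0.804% of all. The core AGGTCA of the element bound by ROR and NR1D factors, on either strand, was in 4 of the 18 and in 12.8% of all. The part GTTGCC of the X-box, the element bound by RFX factors in ciliary genes, was on either strand in 2 of 9 ependymal genes found (Ccdc153 and Tekt1) and in 12.7% of all. A match is a description of the letters only. The 2 windows below are shown as the clock gene with the most E-boxes, and the ependymal gene with the largest fold change. The first is on the minus strand at chr3:95882258-95882478, ends before the outermost annotated start of the gene, and has its E-boxes in capitals. The second is on the plus strand at chr9:44240485-44240570 and has GTTGCC in capitals.
Ciart: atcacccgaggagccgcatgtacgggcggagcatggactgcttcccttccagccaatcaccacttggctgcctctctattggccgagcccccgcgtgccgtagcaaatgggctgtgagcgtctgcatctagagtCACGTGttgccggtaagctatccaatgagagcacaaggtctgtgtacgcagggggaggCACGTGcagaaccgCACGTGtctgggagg
Ccdc153: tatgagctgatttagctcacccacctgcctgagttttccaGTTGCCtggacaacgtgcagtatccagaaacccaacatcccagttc

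The other genes with the smallest p-values among those lower in alcohol-fed mice had varied roles. Rasip1, an endothelial Ras-interacting protein needed for vessel lumens, was between 2.78 and 3.96 FPKM in Ctrl (median 3.13) and between 2.26 and 3.33 FPKM in alcohol-fed mice (median 2.62), a log2 fold change of −0.26 (SE 0.070, unadjusted p = 0.000978, exact permutation p = 0.000913). Tedc2, part of a complex with delta- and epsilon-tubulin at centrioles, had a log2 fold change of −0.16 (unadjusted p = 0.00235, exact permutation p = 0.000679). Either gene was below all Ctrl mice in 8 of 14 alcohol-fed mice. Htr6, the serotonin receptor that couples to adenylyl cyclase, was below the Ctrl median of 2.23 FPKM in all 14 alcohol-fed mice (1.69 to 2.22), but not below the lowest Ctrl mouse at 1.57 FPKM, and its log2 fold change was −0.24 (unadjusted p = 0.00398). The mitochondrial asparaginyl-tRNA synthetase Nars2 was likewise below the Ctrl median in all 14 (−0.15, unadjusted p = 0.00548). The lysosomal beta-mannosidase Manba had a log2 fold change of −0.15, Max, the partner of MYC, one of −0.094, and Lenep one of −0.17, with unadjusted p-values of 0.00505, 0.0086 and 0.00505.

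Of the 39 lists, that of the ependyma and motile cilia held the largest share of small p-values. All 13 members tested had higher means in alcohol-fed mice, 11 of them at an unadjusted p under 0.05, beside 1.21% of all genes in that direction. The other 5 of the 18 listed genes had a mean below 1 FPKM and were not tested. The median log2 fold change was 0.59, and the summed FPKM of the list was between 16.04 and 37.7 in Ctrl (median 23.3) and between 18.6 and 51.1 in alcohol-fed mice (median 37.0), so that the sides overlapped. With each mouse left out in turn all tested members stayed higher, and 7 (without the Ctrl mouse 200) to 11 were under 0.05. The number tested changed with the mouse left out. It was 11 without the EtOH mouse 183 or 47, 12 without some other alcohol-fed mice, and 13 without any one Ctrl mouse. Some members thus reached the mean of 1 FPKM only through alcohol-fed mice in which they were high. Foxj1, the transcription factor that sets up motile cilia, was between 0.81 and 2.64 FPKM in Ctrl (median 1.52) and between 0.52 and 4.18 FPKM in alcohol-fed mice (median 2.57), a log2 fold change of 0.59 (SE 0.276, unadjusted p = 0.0411). Ccdc153, an ependymal marker, was between 0.30 and 4.28 FPKM in Ctrl (median 1.52) and between 0.75 and 7.81 FPKM in alcohol-fed mice (median 3.86), a log2 fold change of 1.13 (SE 0.371, unadjusted p = 0.0056). In either gene 13 of 14 alcohol-fed mice lay above the Ctrl median.

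Structural genes of the axoneme also had higher means, by unequal amounts. The tektin Tekt1 had a log2 fold change of 0.68 (unadjusted p = 0.00492), the central apparatus gene Spag6l one of 0.32 (unadjusted p = 0.00386), the radial spoke gene Rsph1 one of 0.44 (unadjusted p = 0.0257), and the adenylate kinase Ak7 one of 1.104 (unadjusted p = 0.0234). The 2 members with p-values over 0.05 were the dynein heavy chain Dnah9 at 0.035 (unadjusted p = 0.782) and Cfap54 at 0.20 (unadjusted p = 0.219). In bulk tissue, more cells of a type and more RNA per cell cannot be told apart.

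The choroid plexus list had the largest fold changes and the widest spread. All 15 members had higher means in alcohol-fed mice, as had 48.0% of all genes tested, with a median log2 fold change of 1.34, yet only Otx2 (1.58, SE 0.694, unadjusted p = 0.0314), the homeobox factor of choroid epithelium, and Clic6 (1.72, SE 0.758, unadjusted p = 0.0321), a chloride channel protein, were under 0.05. This count depended on single mice. It was 13 of 15 without the Ctrl mouse 144, 12 without the EtOH-UA mouse 141, 9 without the Ctrl mouse 202, 7 without the EtOH-UA mouse 142, 6 without either the Ctrl mouse 201 or the EtOH mouse 183, 4 without the EtOH-UA mouse 178 and 3 without the Ctrl mouse 199. It was 0 without any one of the Ctrl mice 135, 138, 200 and 203, the EtOH mouse 47 or the EtOH-UA mouse 137, and the median was between 1.075 and 1.707 over all mice left out. Ttr, the carrier of thyroxine and retinol that the epithelium secretes, had a log2 fold change of 2.38 (SE 1.289, unadjusted p = 0.0771). Both sides contained mice with nearly no choroid plexus RNA and mice with much of it.

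The difference of the ependymal genes was also examined with choroid plexus RNA taken into account, by a covariate and in subsets of mice. The subsets were chosen after seeing the data. Among the mice with Ttr below 100 FPKM (5 Ctrl, 4 alcohol-fed) the ependymal list had a median log2 fold change of 0.57, with 13 of 13 members higher and 3 under an unadjusted p of 0.05. Among the mice with Ttr of at least 100 FPKM (4 Ctrl, 10 alcohol-fed) it was 0.33, with 13 of 13 higher and 2 under 0.05. With the choroid plexus markers as a covariate over all mice, the median was 0.36, and 6 of 13 were under 0.05. The subsets did not match the sides for choroid plexus RNA. The choroid plexus list itself still had a median of 0.53 in the mice below 100 FPKM (15 of 15 higher). In the mice at or above it, that median was 0.22 (15 of 15 higher).

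**Figure D3:**
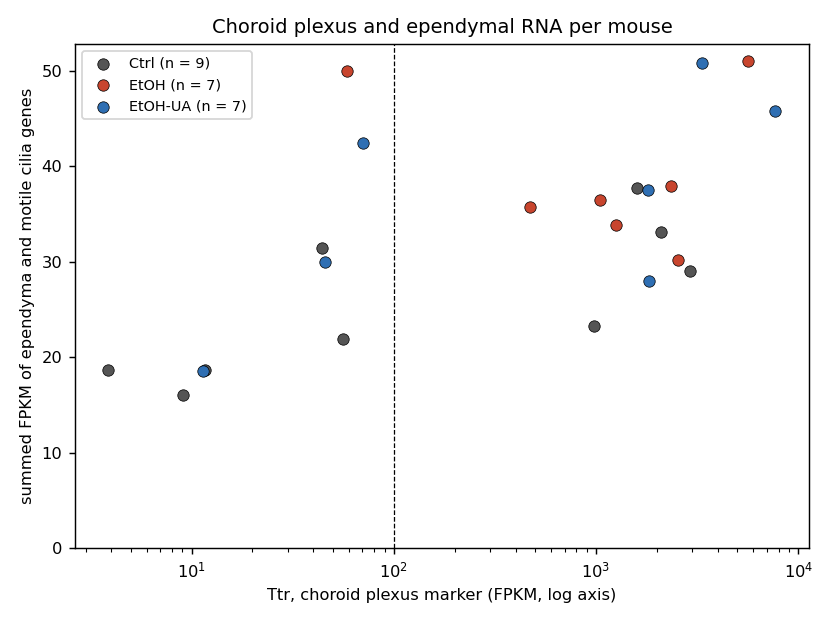
Each point is 1 of the 23 mice, with the FPKM of Ttr on a log x axis and the summed FPKM of the ependyma and motile cilia genes on the y axis. The dashed line is 100 FPKM of Ttr. Of the Ctrl mice 5 of 9 lie to its left and of the alcohol-fed mice 4 of 14, and the highest summed values on either side of the line are from alcohol-fed mice.

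The leading genes were then compared with ependymal markers as a covariate. The log2 fold change of Cd24a was 0.35 in place of 0.65, and those of Odf3b and Rarres2 were 0.31 and 0.23 in place of 0.78 and 0.36. Dbp had −0.11 and Ciart −0.13, in place of −0.22 and −0.21. Slc38a5 (0.50) and Bphl (0.17) had nearly the values they had without the covariate. With choroid plexus markers as the covariate, Cd24a had 0.54 and Dbp −0.17. Among mice below 100 FPKM of Ttr, Cd24a had 0.55 and Ciart −0.19, and at or above it they had 0.61 and −0.21. Other leading genes differed more between these subsets. Below 100 FPKM, Slc38a5 had 0.71, Odf3b 1.195, Tedc2 −0.039 and Lenep −0.086, and at or above it they had 0.36, 0.36, −0.23 and −0.28. The difference between the subsets was not tested. Cd24a is itself an ependymal gene, and the part of ependymal RNA in the differences of the other genes was not tested beyond these values.

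Genes of neurogenesis and of the hippocampal subfields were given as lists. Apart from Cd24a, the 11 other neurogenesis genes tested had log2 fold changes from −0.11 (Stmn1, a microtubule regulator) to 0.21 (Prox1, the granule cell transcription factor), with unadjusted p-values of 0.289 or more. Dcx, the marker of migrating neuroblasts, was between 2.98 and 4.78 FPKM in Ctrl (median 3.91) and between 1.84 and 5.83 FPKM in alcohol-fed mice (median 4.13), a log2 fold change of 0.025 (unadjusted p = 0.875). Of the 20 subfield genes, 15 had higher means in alcohol-fed mice (median 0.057), and none was under 0.05. The CA1 markers went in both directions, with Wfs1 at 0.22 (unadjusted p = 0.0527) and Fibcd1 at −0.26 (unadjusted p = 0.308). Among 7 neurotrophin and receptor genes, Bdnf had 0.095 (unadjusted p = 0.335) and Ntrk3, the receptor for neurotrophin-3, 0.085.

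Genes of the receptors and channels on which ethanol acts had small differences. Of 12 GABA-A receptor subunits, 5 had higher and 7 lower means (median −0.002, range −0.064 to 0.113), with the largest log2 fold change for Gabrb1 (unadjusted p = 0.361). Of 15 NMDA, AMPA and kainate receptor subunits, 10 had lower means (median −0.019). Grin1, the obligate NMDA receptor subunit, was between 107 and 119 FPKM in Ctrl (median 114) and between 85.7 and 119 FPKM in alcohol-fed mice (median 107), a log2 fold change of −0.089 (SE 0.045, unadjusted p = 0.0597). Of 10 ethanol-sensitive potassium channels, 8 had lower means (median −0.034), led by Kcnmb2 (−0.15), an auxiliary subunit of BK channels, and Kcnj9 (−0.11), a GIRK subunit. None of these 37 genes was under an unadjusted p of 0.05.

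Most synaptic genes had lower means in the pooled comparison, by small amounts, as had 6712 of all 12904 genes tested. Of 21 presynaptic release genes, 16 had lower means (median −0.045), among them Cplx1 (−0.10, unadjusted p = 0.106) and Sv2a (−0.064, unadjusted p = 0.0963), which serve vesicle fusion and loading. Of 22 postsynaptic density genes, 17 had lower means (median −0.032), and the inhibitory synapse gene Nlgn2 had −0.072. The postsynaptic median was 0.0 in EtOH (11 of 22 higher) and −0.067 in EtOH-UA (5 of 22 higher). The presynaptic median was −0.027 in EtOH and −0.072 in EtOH-UA. Without the EtOH-UA mouse 137, the pooled medians were −0.006 for postsynaptic and −0.033 for presynaptic genes. Interneuron genes and neuropeptides had lower means in 14 of 18 (median −0.058). Npy, neuropeptide Y, was between 38.8 and 53.7 FPKM in Ctrl (median 45.3) and between 27.3 and 48.8 FPKM in alcohol-fed mice (median 39.6), a log2 fold change of −0.19 (SE 0.076, unadjusted p = 0.0195). It was the single member under 0.05, and 6 of 14 alcohol-fed mice were below all Ctrl mice. Sst (−0.13) and Pvalb (−0.19), the markers of the major interneuron classes, had unadjusted p-values of 0.311 and 0.165, and the opioid peptides went apart, with Penk at −0.22 and Pdyn at 0.24. Of 22 genes of dopamine, adenosine and endocannabinoid signaling 13 had higher means, and Ppp1r1b, the phosphatase inhibitor DARPP-32, had 0.20 (unadjusted p = 0.0304). The other 7 of the 29 listed genes had a mean below 1 FPKM and were not tested. These were Drd2, Drd3, Drd4, Th, Adora2a, Ada and Cnr2.

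Activity, stress and ethanol metabolism genes were near the background. Among 19 immediate early genes, which neurons induce on activity, the median was −0.002 and only Fosb (−0.21, SE 0.088, unadjusted p = 0.0274) was under 0.05, with Fos at −0.007 and Arc at 0.019. Of 17 glucocorticoid targets and receptors, only the sulfotransferase Sult1a1 (0.29, unadjusted p = 0.0409) was under 0.05, while Fkbp5 (−0.018) and Sgk1 (0.091) were not. The 11 genes of ethanol, acetaldehyde and acetate metabolism that were tested had log2 fold changes between −0.060 and 0.048. The other 3 of the 14 listed genes, Adh1, Adh7 and Cyp2e1, had a mean below 1 FPKM and were not tested. The alcohol dehydrogenase Adh5 had 0.048 (unadjusted p = 0.408), the mitochondrial aldehyde dehydrogenase Aldh2 0.047 (unadjusted p = 0.405), catalase (Cat) 0.016 and the acetyl-CoA synthetase Acss2 0.032.

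Of the glial and immune genes, only 2 astrocyte genes were under an unadjusted p of 0.05. Gfap, the intermediate filament of astrocytes, was between 85.6 and 119 FPKM in Ctrl (median 101) and between 101 and 142 FPKM in alcohol-fed mice (median 115). In 13 of 14 alcohol-fed mice it was above the Ctrl median, with a log2 fold change of 0.18 (SE 0.069, unadjusted p = 0.0145, exact permutation p = 0.0192). Cd44, a hyaluronan receptor, had 0.37 (SE 0.165, unadjusted p = 0.0323). In all, 14 of 18 astrocyte genes had higher means (median 0.027), but the glutamate transporters Slc1a2 (−0.007) and Slc1a3 (0.012) and the water channel Aqp4 (0.070) were close to 0. Of 18 microglia and complement genes, 11 had lower means (median −0.023), with Csf1r at −0.070 and C4b, a complement component, at 0.12 (unadjusted p = 0.0731). No member of the microglial list, of the 11 cytokine, chemokine and Toll-like receptor genes (median −0.001), of the 19 interferon and MHC class I genes (median 0.038) or of the 20 myelin genes (median 0.032) was under 0.05. The same held for the 21 NRF2 targets (median 0.001), the 23 endoplasmic reticulum stress and heat shock genes (median 0.026) and the 21 cholesterol genes (median −0.036). Of the listed cytokine, chemokine and Toll-like receptor genes, 10 had a mean below 1 FPKM and were not tested. Among these were Tnf, Il1a, Il1b, Il6, Ccl2 and Tlr4.

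Vessel, blood and border genes had scattered small p-values. Pltp, the phospholipid transfer protein, was the one of 18 blood-brain barrier genes under 0.05 (0.27, unadjusted p = 0.017), and Higd1b, a pericyte gene, the one of 10 pericyte and smooth muscle genes (−0.29, unadjusted p = 0.0347). The hemoglobin gene Hba-a2 had a log2 fold change of 0.68 (SE 0.293, unadjusted p = 0.0296) and Hbb-bs one of 0.51 (unadjusted p = 0.0595). The globins come from blood left in the tissue, share sequence, and can divide reads among near-identical copies. Trf, the iron carrier transferrin that oligodendrocytes and choroid epithelium make, was between 58.6 and 124 FPKM in Ctrl (median 71.2) and between 72.8 and 132 FPKM in alcohol-fed mice (median 102), a log2 fold change of 0.30 (unadjusted p = 0.0337). Of 11 thalamic and habenular genes 9 had higher means (median 0.118), with Lef1 (0.25, unadjusted p = 0.0379) and Prkcd (0.31, unadjusted p = 0.0479) under 0.05. Of 12 neocortical genes 8 had lower means (median −0.050). These lists describe what borders the hippocampus, and the part of dissection in these values was not tested. Of 20 epigenetic enzymes, 12 had lower means, and the histone methyltransferase Setdb1 (−0.080, unadjusted p = 0.0497) was under 0.05. The lists of extracellular matrix, aryl hydrocarbon receptor, acute-phase, mitophagy, meningeal and septal or striatal genes had medians of 0.021, 0.053, 0.033, −0.031, 0.053 and −0.030, and of these only Ppp1r1b, in the last, was under 0.05.

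**Figure D4:**
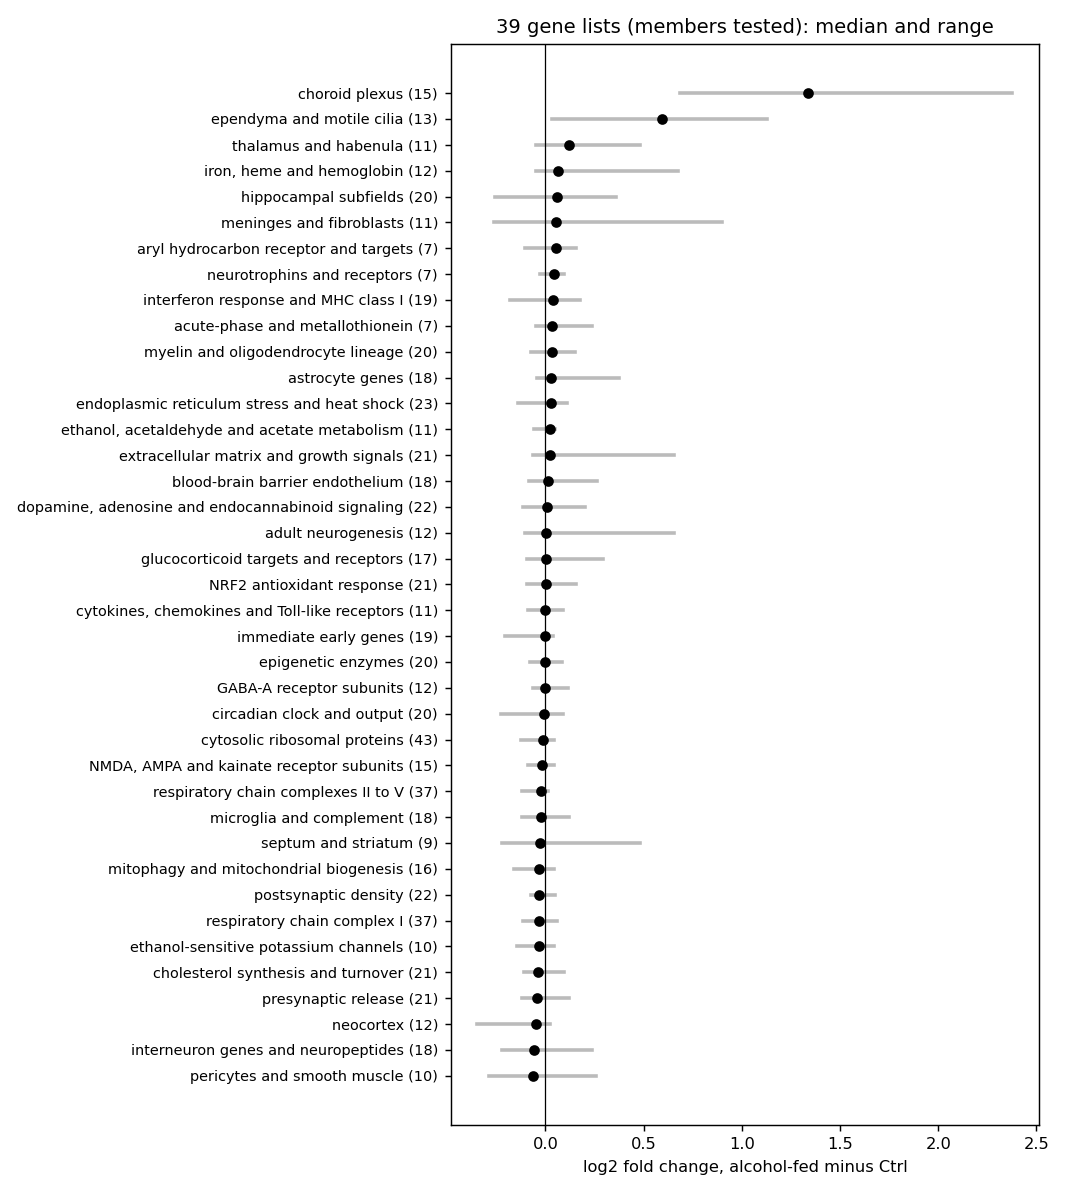
Log2 fold changes of alcohol-fed against Ctrl mice for the members of 39 gene lists, with the median as a point and the lowest to highest member as a line. The number of members tested is in parentheses. The medians of the choroid plexus (1.34) and ependyma (0.59) lists stand to the right, and those of the other lists lie between −0.061 and 0.118.

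Finally, the 2 groups of the alcohol-fed side were set beside each other. They share the 9 Ctrl mice, so that their differences from Ctrl are not independent. Neither gave any gene past the adjustment (limma, 0% called in both), with 248 genes (1.92%) under an unadjusted p of 0.05 for EtOH and 331 (2.57%) for EtOH-UA. The smallest adjusted p was 0.2523 for EtOH, at Cd24a, and 0.9995 for EtOH-UA. Cd24a had log2 fold changes of 0.84 in EtOH and 0.46 in EtOH-UA, Slc38a5 of 0.40 and 0.58, Dbp of −0.27 and −0.18, Ciart of −0.24 and −0.18, and Gfap of 0.13 and 0.23. The difference between the groups was tested directly as EtOH-UA against EtOH, which also gave 0 genes (0%) after adjustment (smallest adjusted p 0.8811) and 392 genes (3.04%) at an unadjusted p under 0.05. Of the 254 genes at that threshold in the pooled comparison, 6 (2.36%) were also under it between EtOH-UA and EtOH. Of the 20 leading genes this held for Cd24a (−0.38, unadjusted p = 0.0342).

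In several lists the medians of the 2 groups lay on opposite sides of 0, among them acute-phase and metallothionein genes (EtOH −0.107, EtOH-UA 0.178). Those of NMDA, AMPA and kainate receptor subunits lay the other way (0.017 and −0.063). In the 3 lists described here, this depended on single mice and on the settings. All 43 cytosolic ribosomal protein genes had lower means than Ctrl in EtOH (median −0.105) and higher means in EtOH-UA (median 0.080), and the pooled median was −0.013. Of 37 genes of respiratory chain complex I, the NADH dehydrogenase, 0 were higher in EtOH (median −0.120) and 34 in EtOH-UA (median 0.044), with a pooled median of −0.032. Of 37 genes of complexes II to V, 0 were higher in EtOH (median −0.087) and 30 in EtOH-UA (median 0.037), with a pooled median of −0.022. No member of these 3 lists had an unadjusted p under 0.05 in the pooled comparison. The higher values of EtOH-UA rested on 2 mice, numbered 137 and 141 in the table, and the summed FPKM of mouse 137, 404609, was the highest of all. Without mouse 137, the EtOH-UA medians were −0.027 for ribosomal proteins (9 of 43 higher), −0.051 for complex I (4 of 37 higher) and −0.041 for complexes II to V (1 of 37 higher), and the pooled medians were −0.069, −0.080 and −0.070. Without mouse 141 instead, the EtOH-UA medians were 0.018 (28 of 43 higher), −0.034 (10 of 37) and −0.025 (9 of 37). With array quality weights both groups were below 0, with medians of −0.145, −0.154 and −0.129 in EtOH and of −0.090, −0.135 and −0.118 in EtOH-UA. With summed FPKM as a covariate, the EtOH-UA medians were −0.010, −0.045 and −0.034. With choroid plexus markers as a covariate, the pooled medians were 0.050, 0.028 and 0.026. With ependymal markers as a covariate, the pooled medians were 0.182, 0.164 and 0.141.

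**Figure D5:**
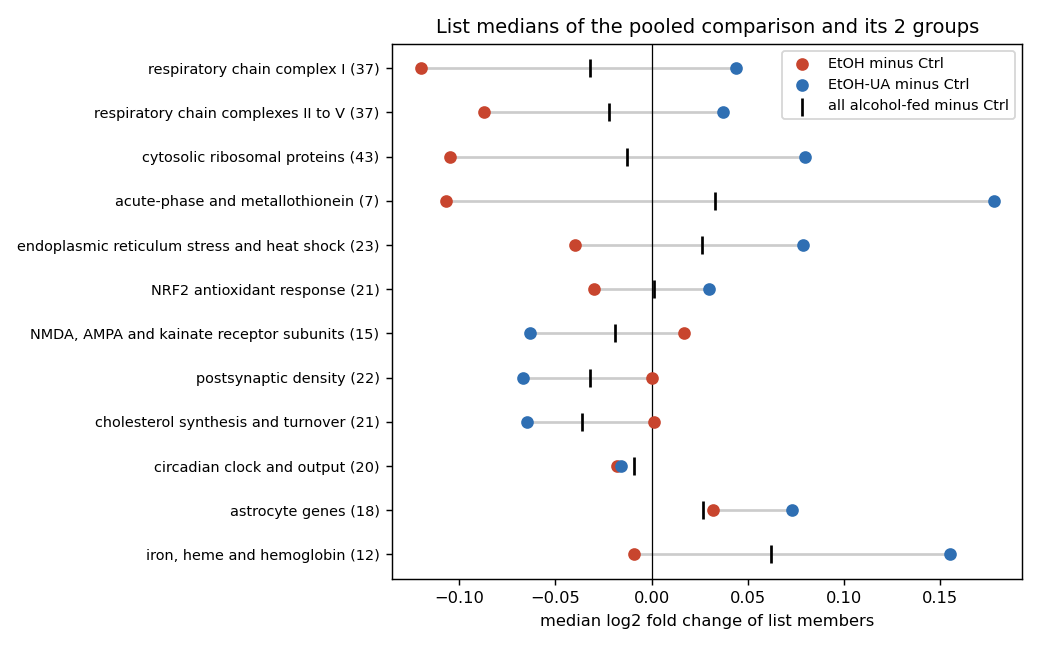
Median log2 fold change against Ctrl of the members of 12 gene lists, for EtOH (red), EtOH-UA (blue) and all alcohol-fed mice (black bar), with the number of members tested in parentheses. EtOH lies left of 0 and EtOH-UA right of it for the 2 respiratory chain lists and the ribosomal proteins. The same holds for the acute-phase, endoplasmic reticulum stress, NRF2 and iron lists. The reverse holds for the NMDA, AMPA and kainate and the cholesterol lists. In each of these the pooled value lies between the 2 groups.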

How the data were processed

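RNA sequencing of hippocampus from 23 mice (9 Ctrl, 7 EtOH, 7 EtOH-UA) was used as 1 table. The authors aligned the reads to mm10 (GRCm38), ran RSEM, and deposited values in FPKM with 2 decimals and without read counts. The submitters' processing notes list HISAT2 2.1.0, Bowtie2 2.2.5, RSEM 1.2.8 and StringTie. The labels give total RNA and an MGISEQ protocol, and the methods give poly(A)+ selection and a BGISEQ machine. Since FPKM carry a scaling for length and for the library, no count model was applied. Columns carry mouse numbers that the labels do not give, so a column was tied to a group only. No 2 columns were identical, and 0 columns were left out.

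Genes whose mean over all mice reached 1 FPKM were fitted as log2(FPKM + 0.1) with limma 3.58.1 in R 4.3.3 (eBayes with an intensity trend, no covariate), with all alcohol-fed mice as one side, and in a second fit with 3 group means. P-values were adjusted by Benjamini-Hochberg over all 12904 genes. An exact two-sided permutation test of the difference of means ran over all 817190 assignments. The pipeline was tested on simulated data. Depth was estimated from genes with 1 transcript whose low values were whole multiples of a step, within 0.01 FPKM in at least 90% of the mice above 0. P-values judge a difference of means against the spread between these mice.

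Named genes were the 10 smallest p-values in each direction, since none passed, the 2 smallest of each of 39 hand-written lists and any gene without overlap. Of the genes this rule names, 1 is not reported here. Members of the clock, ependymal and choroid plexus lists, genes known for a list's function, and Nr1d1 were named after their values were seen. The comparison, lists and alternatives were chosen with earlier results of these data known. Coordinates come from GRCm38 annotations, and upstream sequences from RefSeq.

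Alternatives were a pseudocount of 1 or 0.01, a mean FPKM of at least 0.1 or 5 or no filter, quantile normalization, scaling to the upper quartile, array quality weights, robust eBayes, choroid plexus markers or summed FPKM as a covariate, equal weights of the 2 alcohol-fed groups, and each mouse left out in turn. Added after seeing the data were ependymal markers as a covariate, mouse numbers under 150 as a covariate, and only mice with Ttr below, or of at least, 100 FPKM.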

Additional observations from a re-analysis of the deposited data

Results flagged for a closer look

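In 27 cases among 285 groups of values for the named genes and the 3 leading lists, the highest or lowest mouse of a group was separated from the next by more of the group's range than Dixon's 95% critical value, and chance flags about 1 in 20 groups. The number given after each gene is the gap as a share of the range. Mice are named by the numbers in the table.

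The EtOH-UA mouse 137 was highest for Aldh2 (40.04 FPKM, gap 0.762), Pdia4 (gap 0.602) and Ppp1r1b (gap 0.599), and lowest for Grin1 (85.7 FPKM, gap 0.618) and Nlgn2 (gap 0.692). It also had the highest summed FPKM. The EtOH mouse 47 was highest for the choroid plexus genes Otx2 (10.4 FPKM against 2.65 in the next mouse, gap 0.658) and Clic6 (27.1 against 7.34 FPKM, gap 0.644), for Ocln (gap 0.673), Iqcg (gap 0.595) and Prox1 (gap 0.569), and lowest for Il18 (gap 0.617). The EtOH mouse 189 was highest for the respiratory chain genes Ndufa11 (gap 0.645), Cox8a (gap 0.602) and Cox7b (gap 0.691), the ribosomal protein gene Rpl37 (gap 0.569), Esrra (gap 0.611) and G6pdx (gap 0.641).

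The Ctrl mouse 138 was lowest for Htr6 (1.57 FPKM, gap 0.52) and Pdyn (gap 0.631), and the Ctrl mouse 144 was highest for Iqcg (gap 0.553) and Rorb (gap 0.589) and lowest for Igfbp6 (gap 0.575). Single flags were Gstm1 in the Ctrl mouse 200 (highest, gap 0.5), Ifit3 in the Ctrl mouse 203 (lowest, gap 0.629), Hba-a2 in the EtOH mouse 195 (lowest, gap 0.629), Manba in the EtOH-UA mouse 102 (highest, gap 0.568) and Lenep in the EtOH-UA mouse 141 (highest, gap 0.736). The causes were not tested.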

How the results depend on the processing

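The count of genes at an adjusted p under 0.05 was 0 for the pooled comparison under all alternatives run, including each mouse left out. For EtOH against Ctrl it became 1 with array quality weights, 1 with summed FPKM as a covariate, and 0 to 1 with each mouse left out (1 without the Ctrl mouse 203). No paired analysis was possible because the columns carry mouse numbers, not replicate numbers. The pooled count at an unadjusted p under 0.05, 254, was 1135 with array quality weights, 161 with the choroid plexus covariate, 718 with the ependymal covariate, 611 with summed FPKM as a covariate, 477 and 113 with a mean of at least 0.1 and 5 FPKM, 646 with no filter, and 184 to 428 with each mouse left out (428 without the EtOH-UA mouse 141, 417 without the Ctrl mouse 144). The ependymal median of 0.594 was 0.085 with the ependymal covariate, which is built from genes of that list, and the choroid plexus median of 1.336 was −0.043 with the choroid plexus covariate, by the same construction. The values counted next include those of the exact permutation test, which repeat the main log2 fold change and were counted as unchanged. Robust eBayes, other filters and equal weights of the 2 groups also leave a gene's log2 fold change as it was, so they could not turn its direction. Of 3650 values of 92 named genes, 3612 kept their direction and side of the threshold, and 38 values in 24 genes turned direction. With the ependymal covariate these were Gabrb1 (−0.046), Ntrk3 (−0.049), Prox1 (−0.103), Il18 (0.013), Ermn (−0.074), Ugt8a (−0.105), Ndufb2 (0.058), Ndufa11 (0.097), Cox8a (0.072), Cox7b (0.078), Rps29 (0.114), Rpl37 (0.130), Esrra (0.031), Plin4 (−0.002), Slc13a4 (−0.050) and Zic1 (−0.076). In mice with Ttr of at least 100 FPKM they were Acss1 (−0.035), Aldh2 (−0.027), Grik1 (0.058), Ntrk3 (−0.010), Prox1 (−0.084), Ndufb2 (0.029), Ndufa11 (0.021), Cox7b (0.064), Rps29 (0.014), Rpl37 (0.017), Igf2 (−0.169), Plin4 (−0.175), Serpina3n (−0.002), Slc13a4 (−0.137), Prkcd (−0.127) and Zic1 (−0.284), and in mice below it Dusp1 (0.013) and Csf1r (0.037). With the choroid plexus covariate they were Aldh2 (−0.003), Igf2 (−0.074) and Slc13a4 (−0.030), and with array quality weights Aldh2 (−0.001). The cause was not tested. Genes near 1 FPKM rest on few fragments.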

Other observations

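Of the 27 genes with a log2 fold change of at least 1, 12 belong to neither the choroid plexus nor the ependyma list, and all are named here after their values were seen. The lists were written by hand, so absence from them does not place a gene outside these 2 tissues. The part of choroid plexus or ependymal RNA in these 12 differences was not tested. Steap1, a metalloreductase, had 1.72 (unadjusted p = 0.0422), Ecrg4, a secreted peptide precursor, 1.68 (unadjusted p = 0.067), Defb11, a beta-defensin, 1.54 (unadjusted p = 0.058), the keratin Krt18 1.44 (unadjusted p = 0.0475), Calml4, a calmodulin-like protein, 1.41 (unadjusted p = 0.0409), the collagen Col8a2 1.35 (unadjusted p = 0.0409) and Lbp, which binds bacterial lipopolysaccharide, 1.29 (unadjusted p = 0.0295). Prr32 (1.28), Mfrp (1.19) and the histone gene H3c15 (1.06) had unadjusted p-values of 0.0804, 0.097 and 0.261. The ciliary gene Drc7 had 1.17 (unadjusted p = 0.0245) and Mlf1, which binds 14-3-3 proteins, 1.02 (unadjusted p = 0.00515). None passed the adjustment in limma.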
